A study of Homo sapiens with 8 samples.

Results

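The pentose phosphate pathway and the cytosolic enzymes beside it that make NADPH were examined in stretched A549 cells sorted by their β-galactosidase activity. The members were 7 genes listed by name, with earlier results of these data known: PGD, PGLS, RPIA, TKT, TALDO1, IDH1 and ME1. Of these, 6 were among the 13841 rows of the count table and all 6 passed the low-count filter that left 11351 rows, while ME1, which encodes the cytosolic malic enzyme, was absent from the rows and is not analysed here. A549 is an established human cell line derived from an adenocarcinoma of the lung. All cells had undergone cyclic stretch for 24 h, at 15% elongation and 15 cycles per min, and 6 more days of culture. The positive group (4 libraries, numbers 1, 3, 4 and 5) held cells sorted as β-galactosidase positive, which the labels call senescent, and the negative group (4 libraries, numbers 2, 6, 7 and 8) held cells sorted as β-galactosidase negative. Unstretched cells were not analysed here, so the comparison is between cells that share the stretch. The line is a tumour line that stands in for alveolar epithelium, and separate cultures are not stated for the libraries, so the spread behind each p-value may be technical.

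The pathway has an oxidative and a non-oxidative branch. In the oxidative branch PGLS opens a lactone and PGD oxidises the resulting phosphogluconate, which yields NADPH and leaves a pentose phosphate. In the non-oxidative branch the isomerase RPIA and the epimerase RPE interconvert the pentose phosphates, and TKT and TALDO1 move carbon units between sugars so that pentoses and glycolytic sugars can be exchanged. IDH1 and ME1 make cytosolic NADPH outside the pathway, from isocitrate and malate. NADPH drives the reduction of glutathione and thioredoxin and the synthesis of lipids and deoxynucleotides. Many of these genes are known targets of the transcription factor NRF2 (gene NFE2L2), and A549 carries an inactivating mutation of its inhibitor KEAP1, which keeps NRF2 active in this line.

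The windows upstream of PGD, the oxidative dehydrogenase, and of RPIA, TKT and TALDO1, the non-oxidative enzymes, are shown because the levels of these genes are set against each other below. Each holds the 250 bases before the RefSeq transcription start (build GRCh38.p14), written 5′ to 3′ along the gene, with 3 kinds of motif in capitals, each searched on both strands. The GENCODE spans given further below start elsewhere. The PGD window lies inside the GENCODE span of its gene, and those of RPIA, TKT and TALDO1 overlap theirs in part. The GC box was searched as GGGCGG, and the CCAAT box by the letters of its name. The core of the antioxidant response element, which NRF2 binds, was searched as TGACNNNGC.
PGD (chr1:10398814-10399063, plus strand): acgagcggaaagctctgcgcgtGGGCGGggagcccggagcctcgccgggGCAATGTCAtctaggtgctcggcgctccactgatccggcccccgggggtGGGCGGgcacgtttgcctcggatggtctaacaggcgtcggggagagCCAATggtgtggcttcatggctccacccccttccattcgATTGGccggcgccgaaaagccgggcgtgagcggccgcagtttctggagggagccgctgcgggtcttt
RPIA (chr2:88691423-88691672, plus strand): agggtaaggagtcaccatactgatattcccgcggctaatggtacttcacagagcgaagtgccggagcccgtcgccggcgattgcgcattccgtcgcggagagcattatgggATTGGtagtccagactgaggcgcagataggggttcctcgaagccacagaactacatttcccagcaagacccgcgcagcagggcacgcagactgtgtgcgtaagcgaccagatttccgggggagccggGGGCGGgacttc
TKT (chr3:53256023-53256272, minus strand): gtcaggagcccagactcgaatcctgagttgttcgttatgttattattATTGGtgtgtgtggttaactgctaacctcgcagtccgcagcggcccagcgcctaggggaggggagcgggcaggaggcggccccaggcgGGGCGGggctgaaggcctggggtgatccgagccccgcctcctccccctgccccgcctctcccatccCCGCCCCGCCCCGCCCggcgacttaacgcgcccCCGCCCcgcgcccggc
TALDO1 (chr11:747214-747463, plus strand): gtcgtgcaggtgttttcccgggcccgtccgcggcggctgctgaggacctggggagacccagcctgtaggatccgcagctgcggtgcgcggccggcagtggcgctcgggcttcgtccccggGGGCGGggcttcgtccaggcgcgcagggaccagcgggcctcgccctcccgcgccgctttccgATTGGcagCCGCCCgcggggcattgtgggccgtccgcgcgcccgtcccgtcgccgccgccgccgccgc

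The 6 measured members had 7 such windows, since IDH1 has 2 starts, and both IDH1 windows lie inside its GENCODE span. GC boxes stood in 6 of the 7 windows, against 42.6% of the 35116 windows of this length in the table, and CCAAT boxes in 5 of 7, against 32.0%. The antioxidant response element core stood in 2 of 7, against 10.9%, at 201 bases before the start of PGD on the reverse strand and at 143 bases before a start of IDH1 as TGACTCCGC, where it overlaps a GC box. E-boxes (CACGTG) and TATA boxes (TATAAA) were matched in 0 of 7, against 6.35% and 10.7%. In TKT 3 GC boxes on the reverse strand run into each other, between 49 and 34 bases before the start. The TALDO1 window was 78.4% G or C and the PGD window 68.4%, with a median of 58.0% over all windows. These matches describe the letters of the windows only.

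In edgeR's quasi-likelihood test 0 of the 6 measured members passed an adjusted p of 0.05, and 0% of all 11351 rows did. The count at an unadjusted p under 0.05 was 1631 rows, DESeq2's Wald test called 52 rows, with no member among them, and limma voom called 0. At an unadjusted p under 0.05 there was 1 member, TALDO1, with the lower mean in the positive cells, beside 6.85% of all rows in that direction. At that p 0 members had the higher mean, beside 7.52% of all rows. In either direction the share was 14.4% of all rows. The libraries of the groups did not overlap for 0 of 6 members and for 9.14% of all rows. A log2 fold change below 0 was found for 4 of 6 members (TALDO1, TKT, RPIA and IDH1) and for 51.9% of all rows. The median over the members was -0.24, with -0.02 over all rows. In a bulk library, fewer cells making a transcript and less transcript per cell cannot be told apart. The amplicon kit reads a short stretch of each gene, so levels below are compared between libraries and not between genes. They are given as CPM, counts scaled to a common library total with TMM factors.

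**Figure D1:**
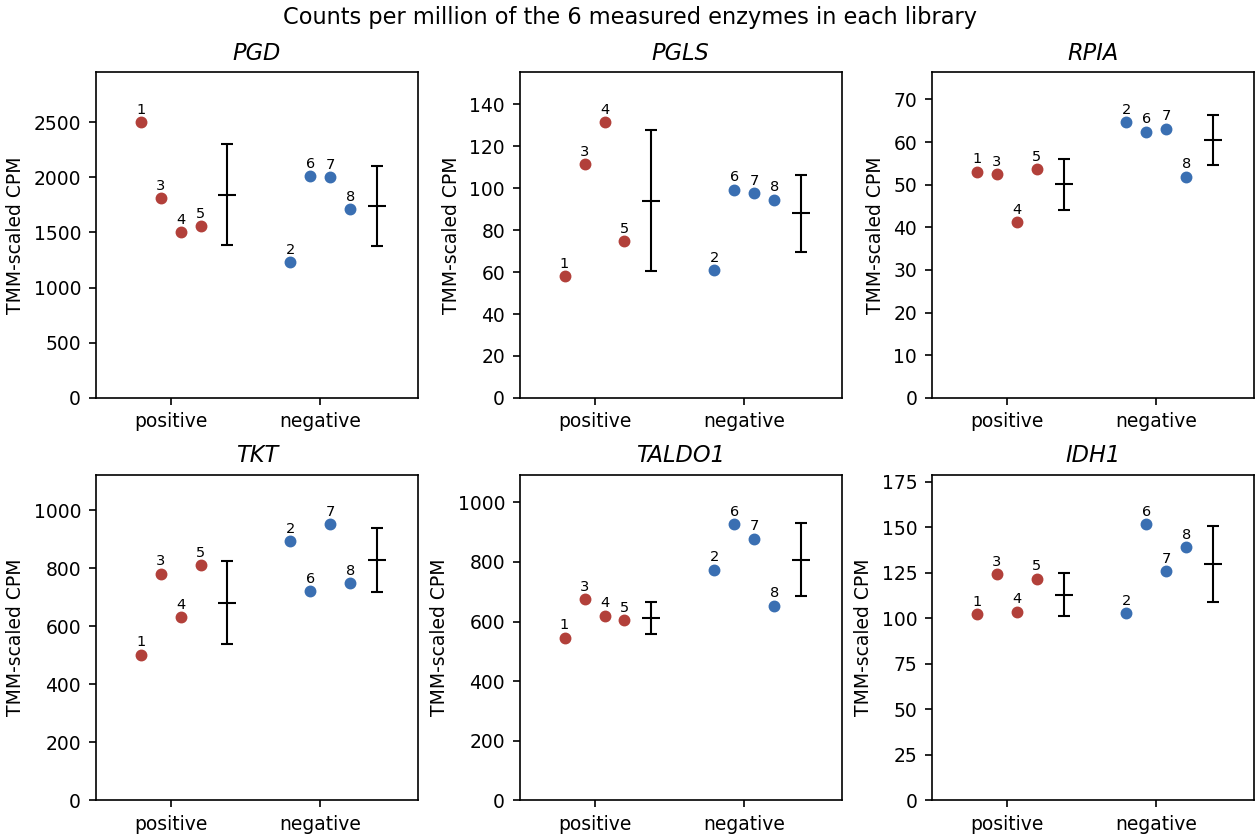
TMM-scaled CPM (vertical axes from 0) of the 6 measured members in each library, with positive libraries in red, negative libraries in blue and library numbers beside the points. Bars give mean ± SD (n = 4 each); the groups overlap in every panel, TALDO1 being parted except for positive 3 and negative 8.

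In the oxidative branch, PGD did not differ between the groups beyond their spread. It was at 2501, 1811, 1502 and 1557 CPM in positive 1, 3, 4 and 5, against 1233, 2009, 2000 and 1709 CPM in negative 2, 6, 7 and 8. Positive 1 was the highest of all 8 libraries and negative 2 the lowest, while the other 6 lay in between with the groups mixed. The 4 positive libraries averaged 1843 ± 459 CPM (SD, n = 4) and the 4 negative libraries 1738 ± 364 CPM (SD, n = 4). The log2 fold change was 0.08 ± 0.22 (SE, 95% interval -0.38 to 0.55, edgeR adjusted p = 0.863). The sign rests on these libraries: the log2 fold change was -0.10 without positive 1, -0.04 without negative 2 and -0.21 without both. PGD is protein-coding and lies on chromosome 1 at 10398592 to 10420144 (GRCh38, GENCODE annotation, as for the members below).

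PGLS, the lactonase upstream of PGD, was at 58.1, 112, 132 and 74.8 CPM in positive 1, 3, 4 and 5, against 60.8, 99.3, 97.6 and 94.5 CPM in negative 2, 6, 7 and 8. The positive libraries spanned the whole range of the negative ones, with their values on both sides of it. The 4 positive libraries averaged 94.0 ± 33.6 CPM (SD, n = 4) and the 4 negative libraries 88.1 ± 18.3 CPM (SD, n = 4). This gave a log2 fold change of 0.10 ± 0.26 (95% interval -0.46 to 0.65, edgeR adjusted p = 0.871), which was -0.10 without positive 4 and -0.03 without negative 2. It was 0.27 without positive 1. PGLS lies on chromosome 19 at 17511629 to 17521288, where non-coding genes on the opposite strand overlap it. The sources used here do not say whether counting used strand.

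All 3 members of the non-oxidative branch had lower means in the positive cells, none past the adjusted threshold. TALDO1, the transaldolase, was at 545, 676, 619.97 and 605 CPM in positive 1, 3, 4 and 5, against 774, 927, 878 and 654 CPM in negative 2, 6, 7 and 8. Only negative 8, just below positive 3, kept the groups from parting. The 4 positive libraries averaged 611 ± 53.6 CPM (SD, n = 4) and the 4 negative libraries 808 ± 121 CPM (SD, n = 4). The log2 fold change was -0.40 ± 0.17 (SE, 95% interval -0.77 to -0.04, edgeR adjusted p = 0.323). The unadjusted p of 0.0325 stood at rank 1141 of 11351. The unadjusted p was 0.0595 without positive 1, 0.0627 without positive 4, 0.0654 without positive 5, 0.102 without negative 6 and 0.0863 without negative 7, with the log2 fold change between -0.46 and -0.33 over all single libraries left out. In edgeR the unadjusted p was 0.0307 without negative 2, 0.0399 without positive 3 and 0.0192 without negative 8. Without both positive 1 and negative 2 the log2 fold change was -0.35, with an edgeR unadjusted p of 0.0379. TALDO1 lies on chromosome 11 at 747329 to 765024.

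TKT, the transketolase, was at 502, 781, 631 and 810 CPM in positive 1, 3, 4 and 5, against 894, 720, 952 and 749 CPM in negative 2, 6, 7 and 8. Positive 1, the highest library for PGD, was the lowest for TKT, and negative 2, the lowest for PGD, was second only to negative 7. The 4 positive libraries averaged 681 ± 143 CPM (SD, n = 4) and the 4 negative libraries 829 ± 112 CPM (SD, n = 4). On the log2 scale the fold change was -0.28 ± 0.19 (95% interval -0.70 to 0.13, edgeR adjusted p = 0.481). Leaving out positive 1 gave -0.16, and leaving out negative 2 as well gave -0.10. TKT lies on chromosome 3 at 53224707 to 53256052.

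RPIA, the isomerase that makes ribose phosphate, was at 53.1, 52.5, 41.2 and 53.6 CPM in positive 1, 3, 4 and 5, against 64.7, 62.5, 63.1 and 51.9 CPM in negative 2, 6, 7 and 8. Here 3 positive libraries lay close together with positive 4 below them, and 3 negative libraries lay above every positive one. Negative 8 fell among the positive values. The 4 positive libraries averaged 50.1 ± 5.96 CPM (SD, n = 4) and the 4 negative libraries 60.6 ± 5.84 CPM (SD, n = 4). The log2 fold change was -0.27 ± 0.16 (95% interval -0.63 to 0.08, edgeR adjusted p = 0.434), and -0.18 without positive 4. RPIA lies on chromosome 2 at 88691644 to 88750935.

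RPE, the epimerase that completes this branch and is not a member, was at 71.4, 70.6, 75.7 and 55.7 CPM in positive 1, 3, 4 and 5, against 112, 85.0, 90.0 and 104 CPM in negative 2, 6, 7 and 8. Every positive library lay below every negative one, as for 4.14% of all rows. The log2 fold change was -0.52 (95% interval -0.88 to -0.15, unadjusted p of 0.00907, edgeR adjusted p = 0.309). It lay between -0.58 and -0.40 under all alternatives tried.

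IDH1, the cytosolic isocitrate dehydrogenase, was at 102, 124, 104 and 122 CPM in positive 1, 3, 4 and 5, against 103, 152, 126 and 139 CPM in negative 2, 6, 7 and 8. The negative libraries other than negative 2 lay above every positive library. The 4 positive libraries averaged 113 ± 11.6 CPM (SD, n = 4) and the 4 negative libraries 129.9 ± 20.9 CPM (SD, n = 4). The fold change was -0.20 ± 0.17 on the log2 scale (95% interval -0.57 to 0.17, edgeR adjusted p = 0.566), and -0.12 without negative 6. IDH1 lies on chromosome 2 at 208236227 to 208266074. An antisense gene, IDH1-AS1, overlaps it on the opposite strand.

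These values rest on different depths. PGD had between 8480 and 14989 counts per library and RPIA between 309 and 445, so counting alone gives a relative error of at most 1.09% for PGD and 5.69% for RPIA. The coefficient of variation between libraries of a group was 24.9% in positive and 21.0% in negative cells for PGD, and 11.9% and 9.65% for RPIA in the same order. For each of the 6 members the spread between libraries was larger than the counting error in both groups.

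**Figure D2:**
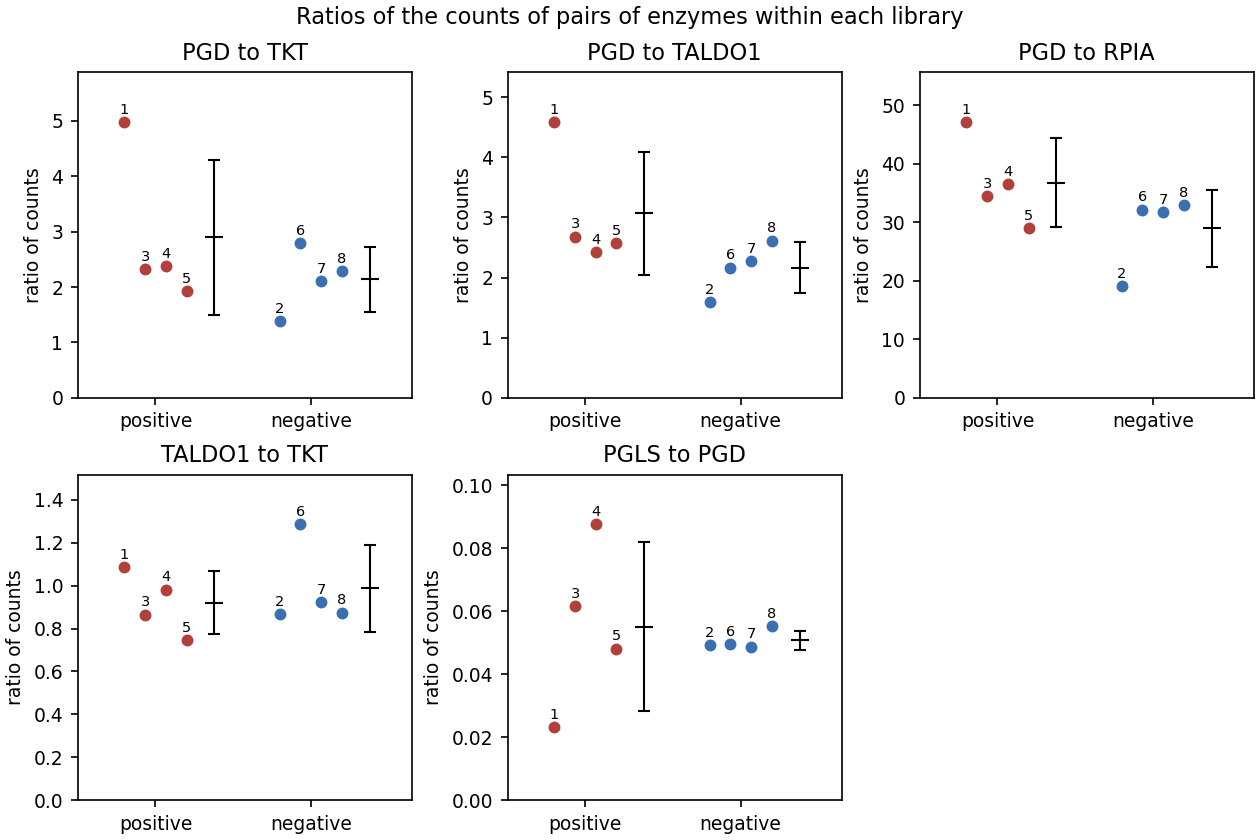
Ratio of the counts of a pair of enzymes within each library (vertical axes from 0), with positive libraries in red and negative libraries in blue, numbered. Bars give mean ± SD (n = 4 each); positive 1 holds the highest PGD to TKT ratio (4.98) and negative 2 the lowest (1.38).

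A ratio of 2 genes within a library does not depend on how libraries are scaled, and it was used to describe the balance of the branches, with no test. The PGD to TKT ratio was 4.98, 2.32, 2.38 and 1.92 in positive 1, 3, 4 and 5, against 1.38, 2.79, 2.10 and 2.28 in negative 2, 6, 7 and 8. Positive 1 and negative 2 lay at opposite ends, and the other 6 libraries were mixed. The difference of the mean log2 ratios was 0.38 over all libraries and -0.11 without those libraries. The PGD to RPIA ratio lay between 29.0 and 47.1 in positive cells and between 19.1 and 32.9 in negative cells, with a difference of 0.36 and 0.04 without both. The PGD to TALDO1 ratio, chosen after its values had been seen, had a difference of 0.47 and 0.12 without both.

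Within a branch the ratios did not part the groups either. TALDO1 to TKT lay between 0.747 and 1.09 in positive cells and between 0.866 and 1.29 in negative cells. The difference of its mean log2 ratios was -0.10 over all libraries and -0.24 without positive 1 and negative 2. PGLS to PGD was close to constant in negative cells, from 0.0488 to 0.0553, whereas in positive cells it ran from 0.0232 in positive 1 to 0.0876 in positive 4. Its difference was -0.03 over all libraries and 0.32 without positive 1 and negative 2, so leaving these out widened the differences within branches. PGD made up 66.5% of the counts of the 6 members in positive 1 and 39.4% in negative 2, and between 48.3% and 50.9% in the other 6 libraries.

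Positive 1 and negative 2 also stood apart in other genes. Mitochondrially encoded transcripts came to 109 CPM by library totals in positive 1 and between 9.39 and 23.3 in the other libraries. RRM2, a subunit of the ribonucleotide reductase that is made in cycling cells, was at 43.7, 21.4, 28.4 and 32.6 CPM in positive 1, 3, 4 and 5, against 175, 28.4, 31.5 and 34.7 CPM in negative 2, 6, 7 and 8. The part of these features in the PGD and TKT values was not tested. The epithelial markers KRT8, KRT18, KRT19, EPCAM and CDH1 were measured in both groups (summed with SFTPB and SFTPC, 1186 to 1689 CPM by library totals in positive and 1286 to 2047 in negative cells). Of the lung markers in that list, SFTPB and SFTPC had at most 3 counts in any library and were not tested, and NKX2-1 was absent from the rows. Of fibroblast markers 5 of 7 were among the rows, at 18.6 to 19.2 CPM by library totals, summed, in positive and 17.0 to 19.8 in negative cells. Of leukocyte markers 2 of 4 were, LYZ and CD14, at 51.1 to 51.5 and 31.3 to 52.2 CPM by library totals in the same order, with PTPRC and CD3E absent. Of endothelial markers 1 of 4 was, at up to 1.21 and 1.06 CPM by library totals. Total counts ranged from 5634961 in positive 1 to 7990839 in negative 2. These libraries also had the highest and the lowest TMM factor, 1.066 in positive 1 and 0.862 in negative 2.

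The profiles of TALDO1 and RPIA across the 8 libraries were the most alike of the 15 pairs of members, with a root mean square difference of 0.18 between their centred log2-CPM values. PGLS and RPIA were the least alike, at 0.51, and PGD and TKT were at 0.49. The genes nearest to the mean profile of the members, among 7940 other rows of at least 10 CPM, were ABHD2 (0.05), ABHD14B (0.06), BLVRB (0.07), SPTBN1 (0.07) and LGALS8 (0.07), where the median row was at 0.33. The members themselves lay between 0.12 (IDH1) and 0.34 (PGLS) from that mean profile, with PGD at 0.30, so it is an average that not every member follows. BLVRB encodes an NADPH-dependent biliverdin reductase. This likeness is a description over 8 libraries that share their scaling.

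**Figure D3:**
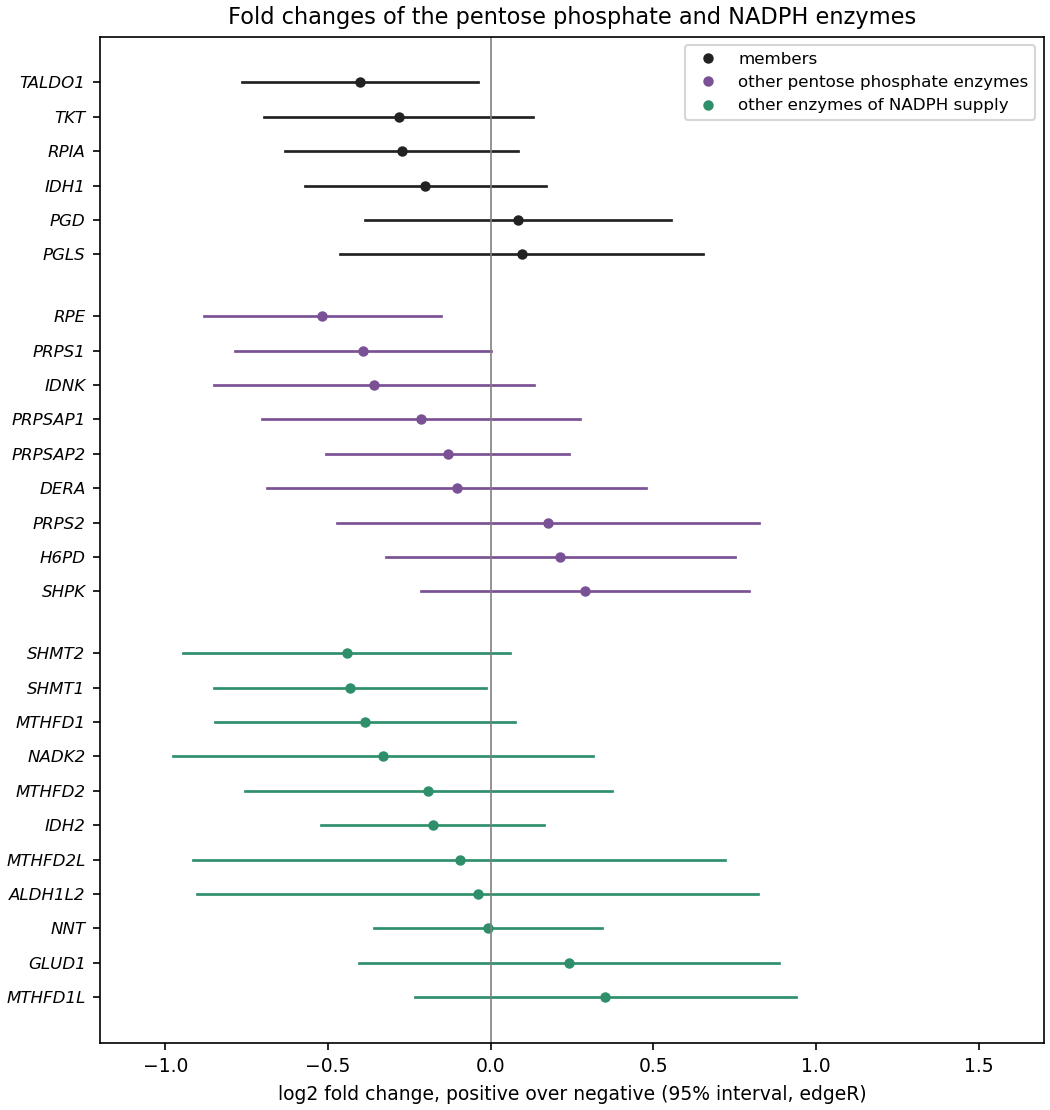
Log2 fold change of positive over negative cells (horizontal axis) with 95% intervals from edgeR, for the members (black), other pentose phosphate enzymes (purple) and other enzymes of NADPH supply (green). The intervals of TALDO1, RPE and SHMT1 do not reach 0, and no gene passed the adjusted threshold.

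Of 13 other enzymes of the pentose phosphate pathway and its side branches, 9 were tested. None passed the adjusted threshold (smallest edgeR adjusted p 0.309). The log2 fold change was negative for 6 of them (51.9% of all rows), with a median of -0.13. RPE was the 1 gene with an unadjusted p under 0.05, in the lower direction (6.85% of all rows). Without negative 2 the median was 0.04, and 2 genes reached that p without positive 1, negative 2 or negative 8 and without both positive 1 and negative 2. PRPS1, which turns ribose phosphate into the precursor of nucleotides, averaged 153 ± 20.4 CPM in positive libraries and 201 ± 39.5 CPM in negative libraries (SD, n = 4). Its log2 fold change was -0.39 (95% interval -0.79 to 0.0022), and -0.23 without negative 2. The other PRPS genes were at 0.18 (PRPS2), -0.21 (PRPSAP1) and -0.13 (PRPSAP2). The gluconate kinase IDNK was at -0.36, the deoxyribose phosphate aldolase DERA at -0.10, the endoplasmic reticulum dehydrogenase H6PD at 0.21 and the sedoheptulose kinase SHPK at 0.29. Without positive 1 PRPS2 was at -0.06, IDNK at -0.21, DERA at 0.03 and SHPK at 0.19. Without negative 2 DERA was at 0.24, PRPSAP1 at 0.04 and PRPSAP2 at 0.02, and without positive 3 H6PD was at 0.08.

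Of 15 other enzymes of NADPH supply and the folate cycle that feeds it, 11 were tested, 9 of them with negative log2 fold changes (51.9% of all rows), and the median was -0.18. None passed the adjusted threshold (smallest edgeR adjusted p 0.339). A single gene, in the lower direction, had an unadjusted p under 0.05 (6.85% of all rows). It was SHMT1, which loads carbon units from serine onto folate in the cytosol, at 72.2, 60.9, 62.9 and 48.9 CPM in positive 1, 3, 4 and 5, against 103, 61.8, 87.2 and 78.4 CPM in negative 2, 6, 7 and 8. Its log2 fold change was -0.43 (95% interval -0.85 to -0.01), and -0.30 without negative 2. The count at that p was 0 without positive 4, positive 5, negative 2, negative 7 or negative 8, and 2 without both positive 1 and negative 2. With single libraries left out, SHMT1 itself kept an edgeR unadjusted p under 0.05 only without positive 1 (0.0227) or negative 6 (0.0157). Without positive 3 its p was 0.0822, and the gene counted there was another. The median was 0.02 without positive 1. The mitochondrial SHMT2 was at -0.44 and MTHFD1, which makes cytosolic NADPH from folate carbon, at -0.39. Among mitochondrial enzymes, MTHFD2 was at -0.19, the isocitrate dehydrogenase IDH2 at -0.18, the transhydrogenase NNT at -0.01 and the NAD kinase NADK2 at -0.33. MTHFD1L was at 0.35 and GLUD1 at 0.24. MTHFD2L and ALDH1L2 were at -0.10 and -0.04. Without positive 1 SHMT2 was at -0.25, MTHFD2 at 0.02 and MTHFD1L at 0.07. Without negative 2 MTHFD1 was at -0.12, IDH2 at -0.11 and GLUD1 at 0.02, and without negative 8 NADK2 was at 0.03. ME2 and NADK had at most 7 and 4 counts in any library and were not tested.

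Genes around the pathway were counted the same way, and 0 of them passed the adjusted threshold. The redox list held enzymes that use NADPH, and thiol and glutathione genes beside them that do not use it themselves (TXN, GLRX, PRDX1, SRXN1, GCLM and GCLC). In this mixed list the log2 fold change was negative in 14 of 17 tested genes, with a median of -0.34. Every positive library lay below every negative one for 4 of the 17, and for 4.14% of all rows. At an unadjusted p under 0.05, 0 were higher and 6 lower (smallest edgeR adjusted p 0.316), with TXN and GCLM among these 6. Over all rows 51.9% were negative and 7.52% were higher and 6.85% lower at that p. That count rests on single libraries, with 0 without negative 2, 1 without positive 3 or positive 4, 2 without positive 1 or negative 7 and 1 without both positive 1 and negative 2. The median was -0.23 without negative 2 and -0.18 without both. The 3 genes of smallest p were CBR3 at -1.11, AKR1B1 at -0.62 and the glutathione reductase GSR at -0.44. CBR3 had only 10 to 45 counts per library, and was at -0.87 without negative 2 and -1.52 without positive 1. GSR was at 317, 385, 468 and 411 CPM in positive 1, 3, 4 and 5, against 695, 487, 538 and 431 CPM in negative 2, 6, 7 and 8. Without negative 2 AKR1B1 was at -0.31 and GSR at -0.28. In NADPH-using biosynthesis 8 of 10 were below 0, the median was -0.07, and 0 were higher and 0 lower at that p. RRM2 was at -1.10, PYCR1 at -0.29 and RRM1, the other subunit of that reductase, at -0.28. Without negative 2 RRM2 was at 0.01, RRM1 at 0.0041 and the median of the list at 0.03. Without positive 1 PYCR1 was at -0.13.

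Among enzymes of sugar phosphate entry 5 of 9 were below 0 (51.9% of all rows), with a median of -0.18 that was -0.05 without negative 2 and -0.07 without both positive 1 and negative 2, and 1 was higher and 1 lower at an unadjusted p under 0.05 (7.52% and 6.85% of all rows), with 0 genes at that p without negative 7. PFKFB3, a kinase that activates glycolysis, was at -0.53, its relative PFKFB4 at 1.32 and the phosphofructokinase PFKM at 0.36. PFKFB4 was at 0.24 without positive 1. Of NRF2 and its regulators 5 of 8 were below 0 (51.9% of all rows), with a median of -0.16 that was -0.07 without positive 1 and -0.09 without negative 7. At that p 0 were higher and 2 lower (7.52% and 6.85% of all rows), against 1 gene in all without positive 1, positive 3 or negative 2. NFE2L2, which encodes NRF2, was at 56.9, 54.6, 77.0 and 55.1 CPM in positive 1, 3, 4 and 5, against 72.6, 75.0, 94.0 and 105.9 CPM in negative 2, 6, 7 and 8. Positive 4 lay above the lowest negative libraries and the other positive libraries lay below all of them, with a log2 fold change of -0.51 (95% interval -0.92 to -0.11, edgeR adjusted p = 0.312). RBX1 and CUL3, parts of the ubiquitin ligase that degrades NRF2, were at -0.67 and -0.34, and RBX1 was at -0.27 without negative 2.

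**Figure D4:**
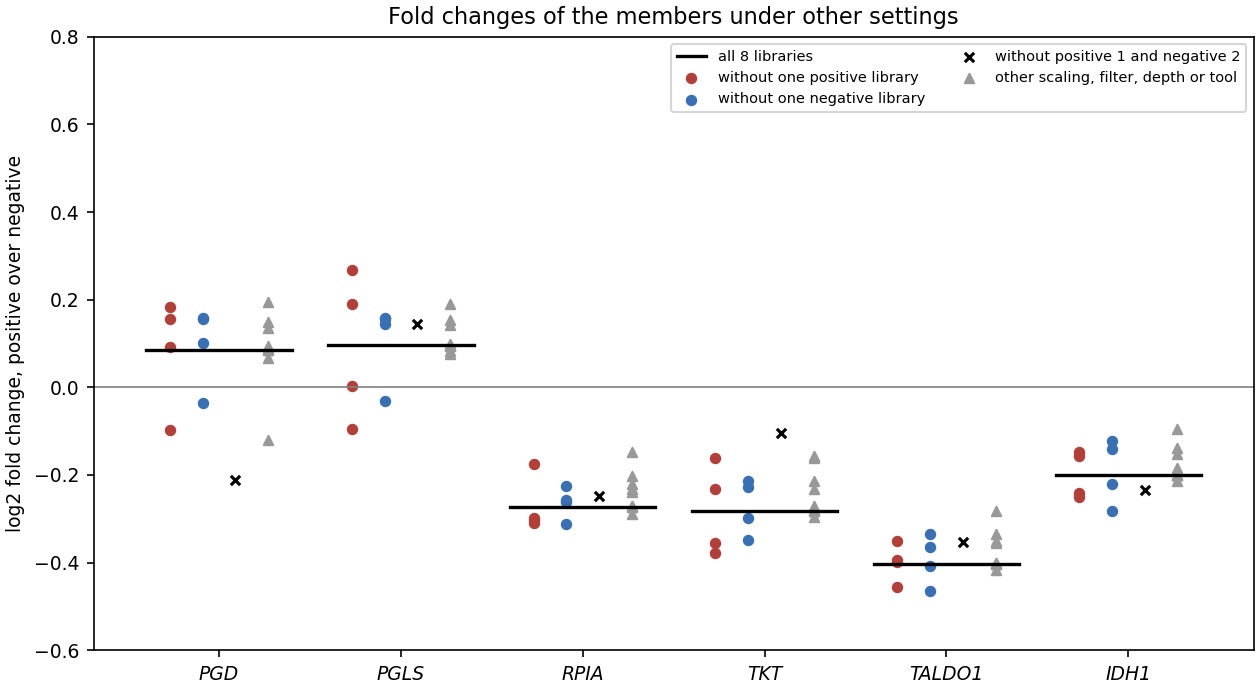
Log2 fold change of positive over negative cells (vertical axis) for each measured member, with all 8 libraries (black line) and under each alternative (points). The values of TALDO1, TKT, RPIA and IDH1 stay below 0 in all 19 alternatives, while those of PGD and PGLS fall on both sides of 0.

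Across the 19 alternatives the log2 fold change lay between -0.46 and -0.28 for TALDO1, between -0.38 and -0.10 for TKT, between -0.31 and -0.15 for RPIA and between -0.28 and -0.10 for IDH1. It lay between -0.21 and 0.19 for PGD and between -0.10 and 0.27 for PGLS. The smallest adjusted p of any member in any alternative was 0.221, for TALDO1 in DESeq2's Wald test. Scaling by library totals alone shifted the median of all rows by 0.12. Relative to the median of all rows, the median of the members was -0.22 with that scaling and -0.22 as reported.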

How the data were processed

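Total RNA was made into libraries with a targeted amplicon kit for human genes (Ion Torrent), per the labels' protocols. The submitters' processing notes name fastp 0.20.1, Salmon 1.9 and GRCh38. The values deposited by the authors are estimated counts for each gene. All were whole numbers, and the library totals differed, so they had not been scaled to a common total. The sources used here do not give the transcript annotation, the summing to genes, any other scaling or the row filter. Groups were taken from the titles.

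Rows were kept with filterByExpr (minimum count 10, total 15) and tested with edgeR 4.0.16 (TMM scaling, robust quasi-likelihood test, R 4.3.3), with p-values adjusted by Benjamini-Hochberg over all 11351 rows and a threshold of 0.05. CPM values carry TMM factors unless given by library totals, and log2-CPM values use a prior count of 2. Relative counting errors come from square roots of counts. Amplicon reads hold no molecular identifiers, so these cover counting error only. Alternatives were other scalings, filters (none, or a minimum count of 50) and tools (DESeq2 1.42.0, limma 3.58.1), robust estimation off, thinning, summing the rows of a symbol, and leaving out libraries. The fit was tested on simulated counts. Symbols were matched through RefSeq synonyms, and gene coordinates are GENCODE's.

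The members and lists were chosen with earlier results of these data known. Named genes were all members, all tested enzymes of the pathway and of NADPH supply, the 3 of smallest p of each other list, and the 5 of likest profile. A planned ME1 to IDH1 ratio could not be computed. Some genes of the lists are not reported here and were left out of the lists and their counts.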

Additional observations from a re-analysis of the deposited data

Results flagged for a closer look

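A library lay far from the other 3 of its group, by the share of the group's range that separates it from its nearest neighbour (Dixon's test for 4 samples), in 18 of 86 groups of values. Chance flags about 5% of groups, or 4.3 of 86, and groups of the same libraries are not independent. Of the 18, 7 were negative 2 and 4 were positive 1.

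Among the members, RPIA was at 41.2 CPM in positive 4, with the other positive libraries from 52.5 to 53.6, and PGLS was at 60.8 CPM in negative 2, with the others from 94.5 to 99.3. Of the ratios, PGD to TKT was 4.98 in positive 1 (others 1.92 to 2.38) and PGD to TALDO1 4.59 in positive 1 (2.42 to 2.68). PGD to RPIA was 19.1 in negative 2 (31.7 to 32.9), TALDO1 to TKT 1.29 in negative 6 (0.866 to 0.922) and PGLS to PGD 0.0553 in negative 8 (0.0488 to 0.0495). The PGD to TKT ratio of positive 1 stands beside its 109 CPM of mitochondrially encoded transcripts, whose part in the ratio was not tested.

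Among the other enzymes, negative 2 was apart for DERA at 54.2 CPM (others 25.2 to 27.4), MTHFD2 at 331 CPM (499.9 to 525.8), NNT at 45.2 CPM (51.3 to 52.5), RRM2 at 175 CPM (28.4 to 34.7) and RBX1 at 266.8 CPM (115 to 131). Positive 1 was apart for PFKFB4 at 33.4 CPM (4.26 to 7.34) and CBR3 at 3.84 CPM (1.31 to 1.73). Positive 4 was apart for NFE2L2 at 77.0 CPM (54.6 to 56.9). Negative 6 was apart for H6PD at 15.9 CPM (9.55 to 10.5) and MTHFD1L at 9.14 CPM (12.4 to 12.8), and negative 8 for MTHFD2L at 1.28 CPM (2.03 to 2.18).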

How the results depend on the processing

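No paired analysis was possible because each library number is used once in the labels. The count of rows past the adjusted threshold was 52 with DESeq2's Wald test and 0 to 1 with single libraries left out (1 without negative 6 or without negative 8). The count of members at an unadjusted p under 0.05 was 0 with library totals alone and 0 with upper quartile scaling, and 0 to 1 with single libraries left out. The median of the members ran from -0.27 to -0.12 over all 19 alternatives. Each move was smaller than the pooled SD, within groups, of the members' median log2-CPM in each library. That yardstick follows the members of middle level and not the spread of every member.

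Some log2 fold changes turned sign against the main fit, which called 0 rows at the adjusted threshold, and the cause was not tested. With voom they were -0.12 for PGD, 0.25 for DERA, -0.22 for PRPS2, 0.0065 for PRPSAP1, 0.025 for NNT, 0.073 for ALDH1L2 and 0.037 for MTHFD2L. With library totals they were 0.037 for DERA, 0.00048 for PRPSAP2, 0.10 for NNT, 0.049 for ALDH1L2 and 0.032 for MTHFD2L. With upper quartile scaling and with a minimum count of 50 they were 0.056 and 0.041 for NNT and 0.017 and 0.0053 for ALDH1L2. Without positive 1 and negative 2 they were -0.21 for PGD, 0.38 for DERA, -0.11 for PRPS2, 0.079 for PRPSAP1, 0.040 for NNT, 0.13 for ALDH1L2 and 0.14 for MTHFD2L. With single libraries left out the ranges were -0.10 to 0.18 for PGD, -0.10 to 0.27 for PGLS, -0.22 to 0.24 for DERA, -0.064 to 0.34 for PRPS2, -0.34 to 0.041 for PRPSAP1, -0.19 to 0.019 for PRPSAP2, -0.34 to 0.022 for MTHFD2, -0.057 to 0.067 for NNT, -0.20 to 0.27 for ALDH1L2, -0.50 to 0.026 for NADK2, -0.35 to 0.047 for MTHFD2L, -0.42 to 0.0041 for RRM1 and -1.36 to 0.011 for RRM2. With 4 libraries a group, the 95% intervals of 5 of the 6 members include 0, all but that of TALDO1, and low-count genes such as MTHFD2L are the least certain.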
